A study of Drosophila melanogaster with 2 samples.

Results

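In Drosophila melanogaster embryos danr-eGFP occupied 2632 regions of the main chromosomes (arms 2L, 2R, 3L and 3R, the 4, the X and the Y), and 456 of them lay at divergent promoters, where genes on opposite strands begin close to each other. Chromatin immunoprecipitation followed by sequencing (ChIP-seq) had been done on whole embryos aged 0 to 24 h, from transgenic flies that carry danr (distal antenna-related) fused to eGFP, with an antibody against GFP after shearing by sonication. There were 2 biological replicates with 1 technical replicate each, both of the same genotype and age, and no second genotype, stage or treatment. The recovered protein was the tagged copy, the embryos span all stages and cell types of embryogenesis, and the control libraries that the labels name were not analysed here. A region is a set of overlapping peaks of the authors' thresholded list for both replicates together, and its summit is that of its strongest peak. The 456 regions are those whose summit lay within 500 bp of at least 1 annotated transcript start on each strand. A further 768 regions had starts within 500 bp on 1 strand alone, and are called one-strand promoter regions here, and 1408 had none. The choice used summit positions and the gene annotation, and no measured level.

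danr encodes a nuclear protein with a DNA-binding domain of the pipsqueak type, and together with its relative distal antenna it is known for roles in antennal and eye development. Divergent promoters are common in the compact fly genome. They often serve broadly expressed genes, and the stretch between the starts is typically kept clear of nucleosomes and holds the promoter elements of both genes. A summit between such starts cannot be assigned to either gene from peak positions alone.

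The stretch between the starts is shown for 6 of these promoters, to make visible what lies under the summits. Each is the forward strand of dm6, read from the RefSeq sequence of the same assembly, so that the minus-strand gene begins just to the left of the first base and the plus-strand gene just to the right of the last. Capitals mark, on either strand, the TATA-box core TATAAA, the core TAATTA recognised by many homeodomain proteins, and the DNA replication-related element TATCGATA bound by the factor DREF.
CG7601/CIA30: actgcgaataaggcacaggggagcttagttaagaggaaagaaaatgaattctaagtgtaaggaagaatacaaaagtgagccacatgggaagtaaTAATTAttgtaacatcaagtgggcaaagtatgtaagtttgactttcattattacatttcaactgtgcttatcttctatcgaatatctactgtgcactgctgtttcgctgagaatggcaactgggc
Tcs5/CHMP2B: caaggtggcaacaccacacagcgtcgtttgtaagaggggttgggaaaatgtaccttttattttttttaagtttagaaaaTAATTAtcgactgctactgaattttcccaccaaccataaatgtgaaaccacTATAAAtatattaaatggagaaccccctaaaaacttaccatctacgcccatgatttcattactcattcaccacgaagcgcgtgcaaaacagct
CG13390/CG17294: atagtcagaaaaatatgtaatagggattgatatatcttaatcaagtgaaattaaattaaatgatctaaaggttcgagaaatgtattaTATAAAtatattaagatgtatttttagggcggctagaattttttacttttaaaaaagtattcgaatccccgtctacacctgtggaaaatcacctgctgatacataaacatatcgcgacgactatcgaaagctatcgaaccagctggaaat
CG3437/CG3552: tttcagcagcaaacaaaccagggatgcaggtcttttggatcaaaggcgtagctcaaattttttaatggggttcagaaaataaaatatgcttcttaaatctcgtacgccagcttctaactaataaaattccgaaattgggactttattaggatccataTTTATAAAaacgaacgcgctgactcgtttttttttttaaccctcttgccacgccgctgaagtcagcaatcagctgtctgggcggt
fws/Lamtor3: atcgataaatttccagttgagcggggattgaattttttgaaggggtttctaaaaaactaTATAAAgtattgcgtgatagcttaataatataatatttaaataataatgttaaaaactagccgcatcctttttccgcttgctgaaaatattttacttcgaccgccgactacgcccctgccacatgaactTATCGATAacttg
RpS25/CG4820: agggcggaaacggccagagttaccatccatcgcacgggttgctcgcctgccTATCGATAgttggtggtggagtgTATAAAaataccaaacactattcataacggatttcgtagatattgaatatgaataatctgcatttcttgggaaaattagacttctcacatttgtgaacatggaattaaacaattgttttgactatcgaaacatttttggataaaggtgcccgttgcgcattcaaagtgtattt
The first lies at chr3R:29736746-29736964 and carries the strongest summit of the 456, at base 119 of 219. The next lies at chr3L:5139396-5139618 with its summit at base 90 of 223, and the third at chr2L:8376798-8377034 with its summit at base 96 of 237. The CG3437/CG3552 stretch lies at chr3L:9457670-9457911 with its summit at base 135 of 242, and the fws/Lamtor3 stretch at chr2L:17481030-17481230 with its summit at base 92 of 201. In these 5 the summit falls near the middle of the stretch. In Mnat9/CG1792, which is not shown and whose signal of 388 is just above that of fws/Lamtor3, it falls at base 26 of 142. The RpS25/CG4820 stretch, at chr3R:11216288-11216534, was chosen because its summit, at base 62 of 247, falls beside a TATCGATA site. A+T content within 50 bp of the summit was 67.3% for CG7601/CIA30, 73.3% for Tcs5/CHMP2B, 79.2% for CG13390/CG17294, 64.4% for CG3437/CG3552 and 71.3% for fws/Lamtor3, and 53.5% for RpS25/CG4820.

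The strongest summit lay between CG7601 (FBgn0027583) and CIA30 (FBgn0039689), an assembly factor of respiratory complex I, at 119 bp from the minus-strand start and 101 bp from the plus-strand start. Its signal, the authors' own enrichment value for a peak, was 866 for both replicates together, with 441 in replicate 1 and 423 in replicate 2. Art3 (FBgn0038306), of the protein arginine methyltransferase family, and mRpS10 (FBgn0038307), of the small mitochondrial ribosomal subunit, shared a summit at chr3R:15229378-15229682 with a signal of 798, and with 454 in replicate 1 and 349 in replicate 2. Tcs5, of a tRNA modification pathway, and CHMP2B, of the membrane-remodelling complex ESCRT-III, shared a summit with a signal of 748, and with 292 in replicate 1 and 459 in replicate 2. These 3 ranked 6, 10 and 11 by signal in the whole series, and their order differed between the replicates.

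Chro, a chromodomain protein of interband chromatin, and Ssl1, a subunit of the general transcription factor TFIIH, shared a summit with a signal of 746, and with 316 in replicate 1 and 439 in replicate 2. It lay 78 bp inside Chro and 183 bp upstream of Ssl1. Also among the 10 strongest were mRpS23 of the mitochondrial ribosome with CenG1A, an Arf GTPase-activating protein, at 662, and Atat, the alpha-tubulin acetyltransferase, with the signalling adaptor Shc at 589. The Atat/Shc summit lay 126 bp from each start, and its signal was 192 in replicate 1 and 396 in replicate 2. The last of the top 10 were mRpL23/CG9004 at 577, the peroxisomal gene Pex11ab with CG8320 at 574, and CG13390/CG17294 at 550. In 9 of the 10 strongest regions both starts lay within 250 bp of the summit, and the exception was mRpS23, whose start was 398 bp away.

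The signal of the 456 had a median of 93.2, with quartiles of 68.1 and 154, against a median of 88.7 at one-strand promoters and 77.2 away from promoters. When all 2632 regions were ranked by signal and cut into 5 equal bins, 23.6% of the strongest bin and 12.1% of the weakest lay at divergent promoters. The share of one-strand promoters fell in the same direction, with 39.4% and 24.7%. The lowest signals were 43.2 at pll/TfIIA-L, 41.0 at Pex13/fsd and 5.68 at Pax/Alp12, where replicate 1 had no ranked peak. Pax, the paxillin gene, and Alp12 were 1 of 2 gene pairs with a pair of separate regions, and the other region between them had a signal of 249. Vha100-2, a proton pump subunit, and Vti1b, a vesicle SNARE gene, were the other such pair, with signals of 188 and 59.8. The rule's limit of 500 bp was met exactly by Mst36Fa/CG31751 (signal 119) and tRNA:Val-CAC-2-5/Naam (63.8), while beta4GalNAcTB/Cpsf100 at 502 bp and Fatp1/Lrr47 at 505 bp, each with a signal of 56.7, fell just outside it.

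Of the 456, 213 overlapped a peak of the thresholded list of each replicate, which is 46.7% (95% exact binomial interval 42.1 to 51.4). The share was close at one-strand promoters, at 44.3% (40.7 to 47.9), and was 40.2% over all 2632 regions. The conservative list of the series, a stricter version, held 362 of the 456, or 79.4%. It held 76.3% of the one-strand promoter regions and 75% of all regions. Replicate 2 carried more of this overlap than replicate 1. Its list held 321 (70.4%) and that of replicate 1 held 265 (58.1%), while at one-strand promoters the order was the other way, with 448 of 768 (58.3%) and 506 of 768 (65.9%). Regions in both lists had a median signal of 157, those in the list of replicate 1 alone 79.8, those in the list of replicate 2 alone 79.4, and the 83 in neither 57.6.

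The same shift was seen in the signals. The ratio of replicate 1 to replicate 2 had a median of 0.823 at divergent promoters (431 regions with a ranked peak in each replicate), 1.12 at one-strand promoters and 1.10 away from promoters. It was below 1 at 65.9% of the 431 and at 39.9% of 721 one-strand regions. Each of the arms 2L, 2R, 3L and 3R and the X had a median below 1 at divergent promoters, between 0.768 and 0.900, and so had each of 3 equal bins by A+T content, between 0.770 and 0.895. One-strand summits within 133 bp of a start, the distance that 3 in 4 of the 456 keep, had a median ratio of 1.05. Depth is unknown for these lists, so a ratio is read here only against that of the other regions. With 2 replicates of 1 group, a difference between these libraries cannot be told apart from anything else that differs between the embryo collections. The lowest ratio, 0.115, was at CG32075/SuUR, a suppressor of underreplication, where replicate 1 had 6.99 and replicate 2 had 61.0, and the highest, 4.34, was at CG1227/Dtwd2, where replicate 1 had 70.2 and replicate 2 had 16.2. Across the 431 regions the signals of the replicates had a Spearman correlation of 0.632 and a Pearson correlation of 0.699 on the log2 scale, given as a description since the points share the same libraries.

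**Figure D1:**
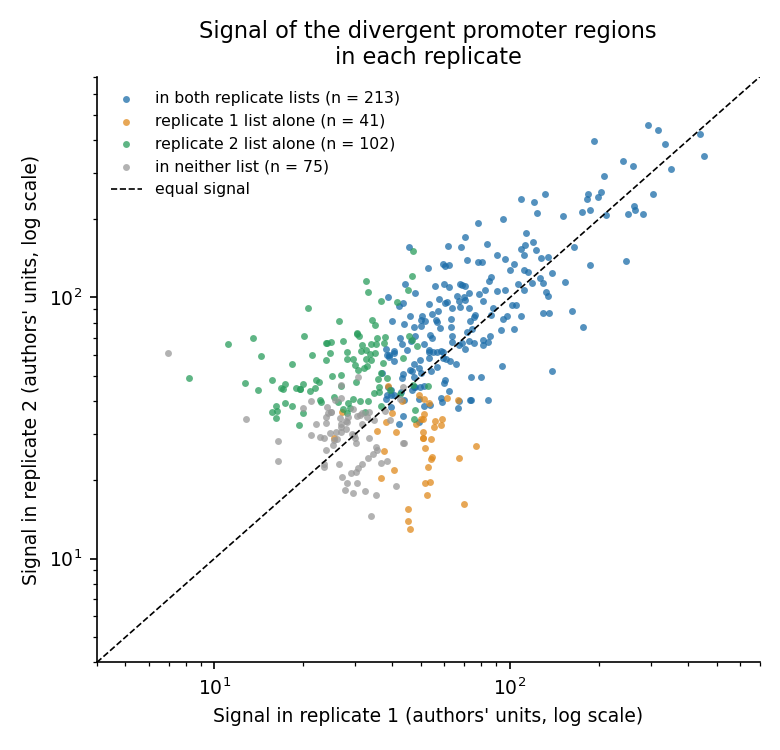
Signal of each divergent promoter region in replicate 1 (x axis) and replicate 2 (y axis), in the authors' units on log axes, coloured by the replicate lists that hold the region, with equal signal as a dashed line. The 431 regions with a ranked peak in each replicate are shown, and 284 of them lie above the line, with replicate 2 the higher.

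The usual arrangement was a pair of genes that point away from each other with the summit in between. In 436 of the 456 regions (95.6%) the nearest starts were head to head, and in the other 20 the nearest transcripts pointed towards each other. Among the 436, 360 summits (82.6%) lay between the starts, 42 inside the minus-strand gene and 34 inside the plus-strand gene. The minus-strand start was the nearer in 218 regions and the plus-strand start in 237, and in 1 region both were equally far. The nearer start was a median of 100 bp from the summit, with quartiles of 63 and 133 bp, and the farther start 198 bp. At one-strand promoters the nearest start was 197 bp away in the median. A nearer start is more likely where starts stand on both strands, so the 2 medians are not a like comparison, and the position upstream is given as well. The summit lay 50 to under 200 bp upstream of the nearer start in 65.1% of the 456 and in 38.2% of the one-strand regions, and 200 to 500 bp upstream in 6.36% and 38.7%. This too takes the nearer of 2 starts in the divergent regions. Over both starts of the 436 head-to-head pairs, 58.5% of 872 distances were 50 to under 200 bp upstream and 26.8% were 200 to 500 bp upstream.

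The position moved with the spacing of the starts, which had a median of 279 bp among the 436 head-to-head pairs. For pairs 200 to under 250 bp apart, all 67 summits lay between the starts, 82 bp upstream of the closer start and 149 bp upstream of the other in the median. For pairs 400 to under 600 bp apart, 76 of 77 lay between the starts, 142 bp from the closer and 357 bp from the other. At the wider spacing the summit was thus often off the midpoint. The closer start is the nearer one by definition, so these medians cannot show a preference for 1 gene of a pair. At the narrow end the pattern was different. Where the starts were under 100 bp apart, 44 of 48 summits fell outside the stretch between them, a median of 79 bp inside 1 gene, 20 in the plus-strand gene and 24 in the minus-strand gene. In 35 of these 48 the summit was 50 to under 200 bp upstream of the other gene's start. An example was E(z), the histone methyltransferase of Polycomb repressive complex 2, whose start is 15 bp from that of Cnep1r2. The summit there was 120 bp inside E(z) and 136 bp upstream of Cnep1r2, with a signal of 160, and with 67.1 in replicate 1 and 96.8 in replicate 2.

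**Figure D2:**
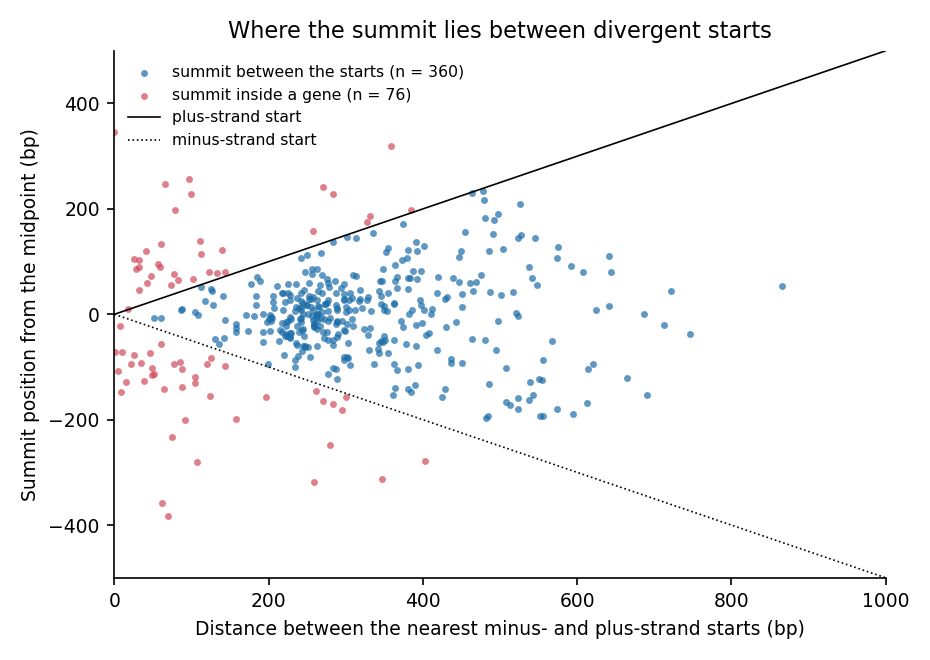
Summit position from the midpoint of the nearest head-to-head starts (y axis, bp, towards the plus-strand gene upwards) against the distance between these starts (x axis, bp) for 436 regions, with the starts drawn as lines. The 360 summits between the starts crowd near the midpoint at 200 to 300 bp, and below 100 bp most summits lie outside the lines.

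To ask how many of the divergent promoters of the genome carried a summit, all head-to-head pairs of protein-coding genes with starts less than 1000 bp apart were listed from the annotation, without regard to the peaks. A pair counted as carrying a summit where one lay between its starts or within 500 bp of each. Of 2667 such pairs, 493 carried a summit (18.5%, 17.0 to 20.01). Of the genes in these pairs, 19.99% had a start with a summit no more than 500 bp away, against 5.85% of the 8211 protein-coding genes with no opposite start within 1000 bp and 11.2% of all 13968 protein-coding genes. A pair offers starts on both strands, and pairs can share a gene or a summit, so these intervals cover counting error and treat pairs as independent. In the authors' ranked list of the series, which also holds weak peaks, 17.5% of 2755 peaks at divergent promoters reached the threshold score, against 4.55% at one-strand promoters, 1.36% elsewhere and 2.12% of all 134801 peaks.

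The share was highest for starts 200 to under 400 bp apart. It was 28.2% there (266 of 942 pairs, 25.4 to 31.2), 14.5% for closer pairs (114 of 786, 12.1 to 17.2) and 12.03% for pairs 400 to under 1000 bp apart (113 of 939, 10.02 to 14.3). The step fell between 150 to under 200 bp, at 9.40%, and 200 to under 250 bp, at 31.8%. The window in which a summit counts is wider for close pairs than for those 200 to under 400 bp apart. It is narrowest for pairs about 500 bp apart, in the widest class, and widens again beyond that. The part of this width in the shares was not tested. Each replicate list gave the same order by itself, with 9.54%, 16.7% and 7.14% for replicate 1 and 10.8%, 22.3% and 8.63% for replicate 2, and the conservative list gave 11.8%, 23.2% and 11.0%. These spacing classes were chosen after the data were seen.

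**Figure D3:**
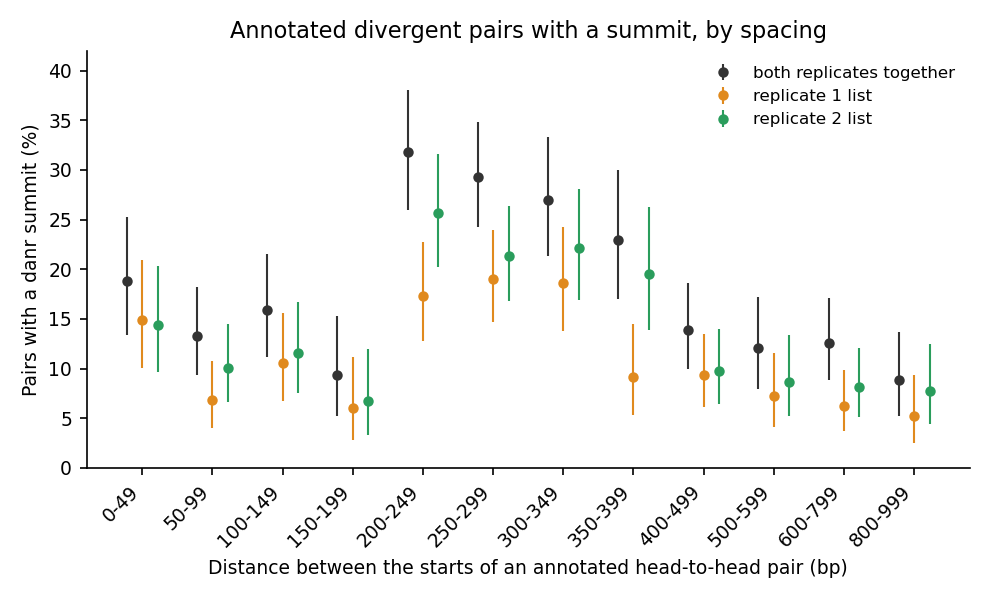
Share of annotated head-to-head pairs of protein-coding genes that carried a danr summit (y axis, %) by the distance between their starts (x axis, bp), for the list of both replicates together and for each replicate list. Points are shares and bars 95% exact binomial intervals, and in the list of both replicates together the 4 classes from 200 bp to under 400 bp lie between 23.0% and 31.8%.

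The X chromosome and the autosome arms differed in these shares. On the X, 51 of 214 promoter regions were divergent (23.8%, 18.3 to 30.1), against 405 of 1007 on 2L, 2R, 3L and 3R (40.2%, 37.2 to 43.3), with 35.6% to 43.8% on the single arms. The interval of the X does not overlap that of the combined arms. It does overlap that of 2R by itself (29.7 to 41.8). Chromosome 4 had 3 promoter regions, none of them divergent, and Y had none. In the annotation, 35.7% of the protein-coding genes on the X and 36.4% of those on the arms belonged to a head-to-head pair. Of these pairs 12.4% of 403 carried a summit on the X (9.35 to 16.0) and 19.7% of 2253 on the arms (18.0 to 21.4). For genes with no opposite start within 1000 bp the order was the other way, with 7.95% on the X and 5.47% on the arms. For pairs 200 to under 400 bp apart the shares were 18.5% on the X and 29.9% on the arms. The share of divergent promoters on the X was 20% in the list of replicate 1 and 22.1% in that of replicate 2, and on the arms 37.3% and 47.1%.

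The genes at these regions were mostly protein-coding on both strands (417 of 456, 91.4%). They were 899 of the 13968 protein-coding genes, or 6.44%. Of 709 genes in 14 lists of pathways and complexes, 91 were at a divergent promoter region (12.8%, 10.5 to 15.5), and in 88 of the 456 regions (19.3%) a listed gene had the nearest start on at least 1 strand. Of the listed genes 59.9% belong to an annotated head-to-head pair, described above, against 36.2% of all protein-coding genes. Among genes in such pairs, 20.2% of the listed ones and 17.1% of all were at one of the 456 regions. This share was 17.9% for the spliceosome, 15.7% for translation factors and tRNA synthetases, and 20% for RNA polymerase subunits and for vesicle transport. It was higher for insulator and core promoter factors (40%), cytosolic ribosomal proteins (35.7%) and Mediator with general transcription factors (24.3%). It was lower for oxidative phosphorylation (13.6%), the proteasome (11.5%) and cell cycle and replication (9.52%). The lists were chosen with earlier results of these data known, so the shares are descriptions.

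**Figure D4:**
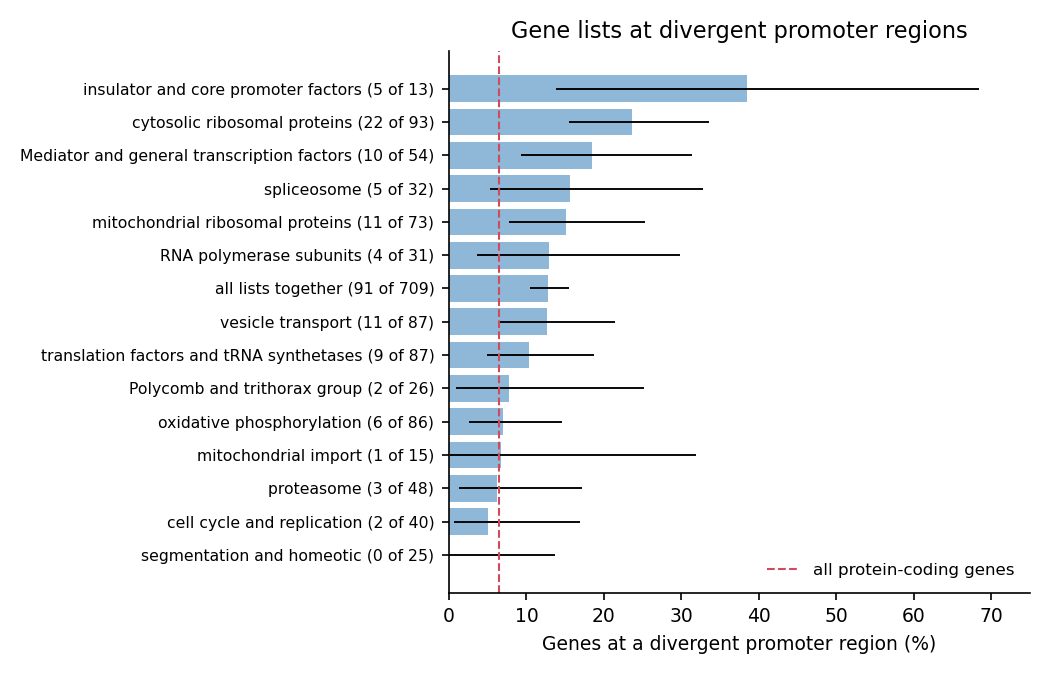
Share of the genes of each list with a start within 500 bp of a divergent promoter region (x axis, %), with bars for the share, lines for 95% exact binomial intervals and the number of genes beside each name. The dashed line is the 6.44% of all protein-coding genes, and insulator and core promoter factors (38.5%) and cytosolic ribosomal proteins (23.7%) have the longest bars.

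Genes for cytosolic ribosomal proteins, the subunits of the main ribosome, numbered 22 of 93 at divergent promoter regions (23.7%, 15.5 to 33.6). The strongest were RpL34b, facing away from CG8132, with a signal of 222, RpL32 with CG7943 at 217, RpS27 with the nuclear pore gene Nup37 at 149, and RpL7 with Ripalpha at 148. Replicate 1 gave 80.3, 100.3, 80.8 and 53.1 for these in turn, and replicate 2 gave 136, 127, 65.7 and 94.1. The other 18 had lower signals, so none of the 22 came near the strongest regions.

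Their summits sat close to the ribosomal protein gene. In 11 of the 22 the summit was within 50 bp of its start, as at RpL4 (3 bp), RpL31 (5 bp), RpS18 (5 bp), RpLP0 (14 bp), RpL7 (15 bp) and RpL14 (20 bp). The median was 55 bp upstream of that start and 150 bp upstream of the partner. At the 367 regions with no listed gene, 15.0% of summits were within 50 bp of the nearer start. Ribosomal protein genes at one-strand promoters had a summit within 50 bp in 10 of 15 regions, with a median of 38 bp upstream. The replicate lists gave 8 of 16 regions for replicate 1 and 4 of 13 for replicate 2. This distance was compared after the data were seen. The replicate ratio at the 21 of these regions with both values was 1.23 in the median, above the 0.823 of divergent promoters as a whole, and 1.60 at the 15 one-strand ones. The share of the list at divergent promoters was 14.0% in the list of replicate 2.

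Mitochondrial genes included some of the strongest regions. Of 73 genes for mitochondrial ribosomal proteins, 11 were at a divergent promoter region (15.1%, 7.77 to 25.4), led by mRpS10, mRpS23 and mRpL23, and followed by mRpL24 with betaggt-I at 214 (129 in replicate 1 and 87.4 in replicate 2). No summit of the 11 lay within 50 bp of the listed gene's start (interval 0 to 28.5%), and the median was 132 bp upstream. For the cytosolic ribosomal proteins it was 11 of 22 (28.2% to 71.8%), and these intervals overlap slightly. The interval of the 11 also covers the 15.0% within 50 bp of the nearer start at regions with no listed gene. Of these 73 genes 79.5% belong to annotated head-to-head pairs, and 19.0% of those in pairs were reached, close to the 17.1% of all genes in pairs. Of 86 listed genes of oxidative phosphorylation, 6 were reached (6.98%), 5 of them subunits of complex I and the other the ATP synthase gene ATPsynE. ND-ASHI with the fumarase gene Fum1 was at 229 (118 and 114 in replicates 1 and 2), ND-MWFE with TppII at 181, ND-24 with corolla, a protein of the meiotic synaptonemal complex, at 135, and ND-42 with Cchl, which attaches haem to cytochrome c, at 73.5. Of 15 genes of mitochondrial import, only Tom7 was reached, at 68.1, and it was not in the list of replicate 2.

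Genes of the transcription machinery were spread over the range of signals. Of 54 listed genes for Mediator, the coactivator complex that bridges activators and RNA polymerase II, and for general transcription factors, 10 were reached (18.5%, 9.25 to 31.4). MED27 with elm was at 227 (68.2 and 156 in replicates 1 and 2), Taf5 of TFIID with Pex6 at 147 (93.7 and 54.8), MED17 with CG12321 at 117 and Taf2 with CalpB at 90.2. The list of replicate 2 alone placed 5.56% of this list at divergent promoters. Of 31 genes for RNA polymerase subunits 4 were reached (12.9%), namely Polr2H with CG11247 at 200, Polr2B with 140up at 163, Polr2J with CG15141 at 135 and the RNA polymerase III subunit Polr3E with CG10584 at 118. Of 32 listed spliceosome genes, 87.5% of which belong to annotated head-to-head pairs, 5 were reached (15.6%). Among these 5 the highest signals were at Sf3b6 with the nuclear import gene Tnpo (111) and Prp31 with the mismatch repair gene Msh6 (80.9). Sf3a2 with CG42588 (66.9) and snRNP-U1-C with gukh (64.7) followed. The listed genes named here were all at weaker regions than mRpS10, mRpS23 and mRpL23. The lists match symbols, so Ssl1 of TFIIH, at 746, was not counted among the 54.

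Insulator and core promoter factors bind chromatin at domain borders and promoters, and 5 of 13 had their own divergent promoter occupied (38.5%, 13.9 to 68.4). They were Chro at 746, Cp190 with CG4338 at 320 (187 and 133 in replicates 1 and 2), BEAF-32 with an antisense RNA gene at 98.4, M1BP with CG8202 at 96.5 and pzg with CG12974 at 82.7. Each replicate list by itself also placed 5 of the 13 genes there, which was not compared gene by gene. With 13 genes the interval is wide. Of 26 genes of the Polycomb and trithorax groups, which keep developmental genes silent or active, 2 were reached, namely brm, the ATPase of the Brahma remodelling complexes, with Arl1 at 409 (187 and 217 in replicates 1 and 2), and E(z). None of 25 segmentation and homeotic genes was reached, and the exact interval allows up to 13.7%. None of these 25 belongs to an annotated head-to-head pair.

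Translation factors and tRNA synthetases had 9 of 87 genes at these regions (10.3%). The strongest was eIF6, which keeps the ribosomal subunits apart, with an antisense RNA gene at 499 (208 and 293 in replicates 1 and 2), followed by GluProRS with AP-1sigma at 238, SerRS with CG17260 at 165 and IleRS with the actin regulator Hem at 138. Vesicle transport had 11 of 87 (12.6%), led by Vps33B with the protease gene Fur1 at 173, Rab3GAP1 with CG14352 at 130, Vps36 of ESCRT-II with Liprin-beta at 124 and Rab39 with Pdp at 118. The list of replicate 1 alone placed 5.75% of this list there. Of 48 proteasome genes 3 were reached (6.25%), namely Rpn3 with l(2)37Bb at 97.0, Prosbeta2 at 96.3 and Rpn5 with the histone acetyltransferase gene Hat1 at 91.6. Of 40 genes listed under cell cycle and replication 2 were reached (5%). They were the E2F partner Dp at 133 and Cdk12, with SAK, the centriole kinase gene, at 130. Cdk12 is in the list by its symbol alone. In only 2 regions did both nearest genes belong to a list. These were mRpL39/Prosbeta2 with a signal of 96.3 (20.1 and 71.1) and RpL28/eIF1 with 61.8 (29.6 and 29.8).

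In 39 regions at least 1 of the nearest starts was of a non-coding gene, an RNA gene in 33, a pseudogene in 3 and a tRNA gene in 3. The strongest of these after eIF6 was lncRNA:CR44149 with brwl at 458 (250 and 209 in replicates 1 and 2), then lncRNA:CR44209 with the cytochrome gene Cyt-b5 at 279. Act87E, an actin gene, and E(spl)m3-HLH, a repressor in the Notch pathway, had long non-coding RNA genes as partners, with signals of 79.6 and 156. Among the 20 regions whose nearest transcripts faced each other, CG4741/Adck1 had the highest signal, 270 (127 and 142), followed by CG31808/Cyt-c-d at 244, lncRNA:CR43918/Dp at 133, CG43345/mAcon1, for a mitochondrial aconitase, at 102, and lncRNA:CR45463/Daxx at 101. Most regions had starts of 2 genes within 500 bp (426 of 456). These RNA and actin pairs, and the locus that follows, were named after their values were seen. The region with the most genes was the mod(mdg4) locus, whose trans-spliced transcripts are annotated as separate genes, with 10 genes and a signal of 205.

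The summits lay in A+T-rich sequence. Within 50 bp of the summit, A+T content was 69.4% ± 8.83 (SD over 456 windows), against 66.6% ± 9.74 at one-strand summits, 66.1% ± 9.20 away from promoters and 52.8% ± 10.3 in windows 1000 bp to either side. The midpoints of annotated pairs without a summit had 65.9% ± 10.5 over pairs of every spacing. With starts 200 to under 400 bp apart, these midpoints had 71.2% ± 8.61 and the summits of 252 regions 70.8% ± 7.94. At that spacing the summits were thus no richer in A+T than the midpoints of pairs without one. Weaker ranked peaks at divergent promoters, below the threshold score, had 56.9% ± 10.9 over 2273 windows. In 25 bp steps the mean fell from 71.3% at the summit to 49.6% and 52.0% at 500 bp on either side, lower than the 57.1% to 58.4% at the same distance from the other summits.

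**Figure D5:**
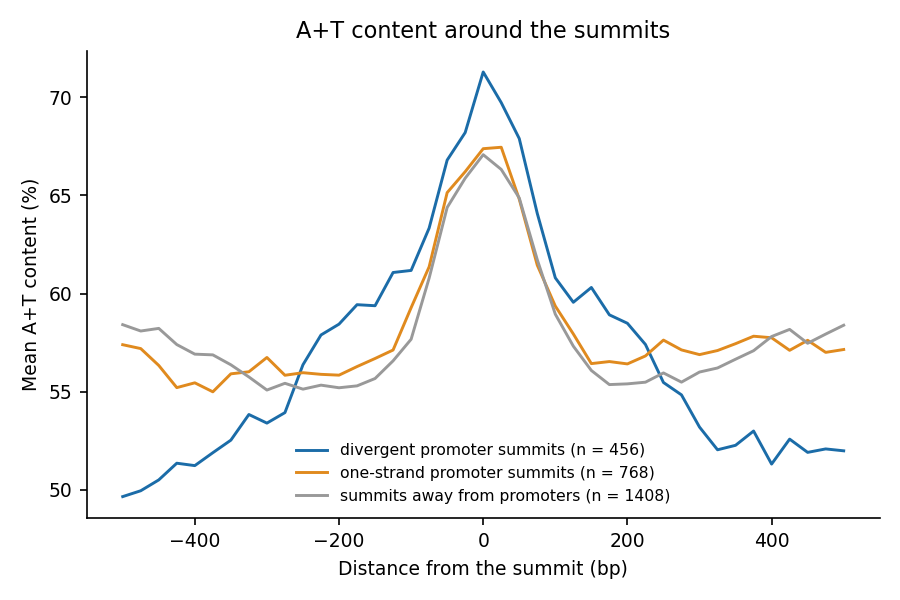
Mean A+T content (y axis, %) by distance from the summit (x axis, bp) for divergent promoter regions, one-strand promoter regions and regions away from promoters. The peak at the summit reaches 71.3%, 67.4% and 67.1% in turn, and the divergent promoters are the lowest of the 3 at 500 bp.

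The base composition of pairs with and without a summit was close over the whole stretch, and A+T was higher near the middle in those with one. At pairs 200 to under 400 bp apart, the whole stretch between the starts had 65.9% ± 4.67 A+T with a summit (266 pairs) and 65.6% ± 5.96 without (676 pairs), and a median length of 279 and 290 bp. Within 50 bp of the midpoint the values were 74.3% ± 6.48 and 71.2% ± 8.61. The SDs are over pairs, and the difference of the means was not tested.

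Short motifs, counted on either strand, were read against the same stretches without a summit. TATAAA was in 52.3% of the stretches with a summit and 52.5% of those without, and TAATTA in 35.3% and 30.2%. TATCGATA was in 16.2% and 19.4%. CATCNCTA, a core promoter element of broadly expressed fly genes, was in 15.8% and 7.84%, and CAGCTG, an E-box, in 22.9% and 16.7%. GAGAGA, bound by the GAGA factor, was in 3.38% and 7.54%, and GGTCACAC, bound by M1BP, in 5.64% and 9.62%. Within 50 bp of the summits themselves TATAAA was in 30.7% of the 456 windows, against 22.9% at one-strand summits, 21.7% at the midpoints of pairs without a summit and 7.57% in the windows 1000 bp away. TAATTA was in 14.3%, 8.85%, 10.7% and 3.29% of the same windows. The midpoints here are of pairs of every spacing. For pairs 200 to under 400 bp apart, TATAAA was in 32.1% of the windows at summits of the 252 regions and 28.3% of the midpoints of the 676 pairs without a summit, and TAATTA in 15.5% of each. At the midpoints of the 266 pairs with a summit, the like position, TATAAA was in 35.3% and TAATTA in 19.2%. The intervals overlap for both motifs. Both motifs consist of A and T, and the part of base composition in these shares was not tested. A match is only the presence of these letters.

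TATCGATA lay within 50 bp of the summit in 17 of the 456 regions (3.73%), against 1.04% of one-strand summits, 0.0710% of summits away from promoters and 5.52% of the midpoints of pairs without a summit. For spacings of 200 to under 400 bp it was in 3.97% of windows at summits (10 of 252, 1.92 to 7.18). At the midpoints of pairs without a summit it was in 1.78% (12 of 676, 0.921 to 3.08), and these intervals overlap. Summits and midpoints are unlike positions. At the midpoints of pairs with a summit it was in 0.376% (1 of 266, 0.00952 to 2.08), so the order depended on where the window was placed. In 6 of the 17 a cytosolic ribosomal protein gene was on 1 strand. Their signals ran from 45.9 to 175 with a median of 74.8, below the 93.2 of all 456. The strongest was GCS2beta, a glucosidase II subunit gene, with CG5131 at 175 (62.3 and 109 in replicates 1 and 2). Others were RpL19 with CG3776 at 105 (59.8 and 46.9), RpL41 with the sodium channel gene NaCP60E at 105 (62.2 and 43.8), CG15027 with Dbct at 97.3, RpS25 with CG4820 at 89.3 (67.2 and 24.2), PGAP2 with Clp at 87.7, Su(P) with CG4101 at 87.1, dsd with Tusp at 74.8 and Ttc19 with Acn at 73.8. At RpS25/CG4820, printed above, the middle of the site was 6 bp from the summit and it began 52 bp from the start of RpS25. The fws/Lamtor3 stretch also holds the motif, but near the Lamtor3 start and outside the 50 bp window. In the list of replicate 1, TATCGATA was in 1.46% of the windows at divergent promoters, and in that of replicate 2 in 2.39%.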

How the data were processed

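The authors deposited 8 lists of peaks on dm6, per the labels, and 7 were used. These are the ranked and the thresholded list of each replicate, and, of the series as a whole, a ranked, a thresholded and a stricter conservative list. Neither aligner nor peak caller is named in the sources used here. The signal is an enrichment value that the authors deposited with every peak, and it was used only within a list or to set the replicates side by side. The score is the authors' deposited transform of the irreproducible discovery rate, and every row of the deposited thresholded lists had a score of at least 830. Reads per library are not in these lists, so depth is unknown, and intervals (95%, exact binomial) cover counting error and treat regions, pairs or genes as independent.

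Rows sharing 1 bp or more were merged, the row of highest signal gave the summit, and the 7 chromosomes were kept. A replicate's signal at a region is that of its strongest overlapping ranked peak, which a neighbouring region may share. Transcript starts came from Ensembl release 115, whose assembly is that of dm6, with transposable elements left out (24111 start positions, 18277 genes). Sequences came from RefSeq for the same assembly, and a stretch between starts was printed only where no annotated exon overlaps it. The 12 motifs were searched on both strands, and none contains another. They were the DREF site TATCGATA, the TATA-box core TATAAA, the E-boxes CACGTG as well as CAGCTG and also CATATG, the GAGA factor repeat GAGAGA, the core promoter elements GGTCACAC and then CATCNCTA, the initiator core TCAGT, the HMG-type core ACAAT, the homeodomain core TAATTA and the A-tract AAAAAA. Gene lists matched symbols, narrowed so that unrelated symbols with the same start were left out. Genes of a pathway or complex under other symbols were missed, so counts and rankings hold for the listed genes alone.

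Named genes were those of the 10 strongest and 3 weakest regions, up to 4 per list by signal, pairs with a listed gene on both strands, 2 regions on either side of the 500 bp limit, extremes of the replicate ratio, up to 5 regions with facing transcripts and up to 10 with TATCGATA. A few genes that this rule takes are not reported here. The printed sequences were taken from the strongest head-to-head regions with 40 to 250 bp between the starts, and from those with TATCGATA. The members, lists and rules were chosen with earlier results of these data known. No test was run, since there is 1 group of 2 replicates and no independent comparison. The labels call the replicates biological, and nothing was pooled here. Region merging, summits and classes were tested on simulated regions. Python 3.11.15, numpy 2.4.6 and scipy 1.17.1 were used. The alternatives were each replicate list by itself, the conservative list, limits of 250 and 1000 bp, protein-coding starts alone, no merging, an overlap of 50%, and motif windows of 25 and 100 bp.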

Additional observations from a re-analysis of the deposited data

How the results depend on the processing

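No paired analysis was possible because there is 1 group. Leaving out a replicate meant taking the list of the other, whose signals are on another scale, and gave 274 to 335 regions. It gave 63.3% to 77.7% in both replicate lists, 85.1% to 91.2% in the conservative list, a median signal of 59.8 to 66.6, starts 275.5 to 277 bp apart, and a nearer start 99 to 103 bp away. It gave 11.2% to 14.1% of annotated pairs with a summit, 69.7% to 70.7% A+T, TATCGATA in 1.46% to 2.39% of windows, and 8.60% to 9.45% of listed genes. With the conservative list, 56.2% were in both replicate lists, the median signal was 106, the nearer start was 104 bp away and 15.6% of annotated pairs had a summit. A limit of 250 bp gave 300 regions, a median signal of 103, 98.7% head to head, starts 247.5 bp apart, a nearer start at 93.5 bp, 94.7% coding on both strands, 16.9% of pairs, 70.8% A+T and 8.74% of listed genes. A limit of 1000 bp gave starts 310.5 bp apart, a nearer start at 107 bp, 87.8% coding on both strands, 20.1% of pairs and 68.3% A+T. Protein-coding starts alone gave 98.1% head to head and, by construction, 100% coding on both strands, and counting any head-to-head pair gave 97.4%. Windows of 25 and 100 bp gave 70.1% and 66.6% A+T, TATCGATA in 1.54% and 8.33%, and TATAAA in 15.8% and 46.9%. The other 44 values moved by less than the counting interval, the spread between replicate lists or, for counts, 1.5 times, among them the 82.6% of summits between the starts (80.8% to 83.9%). At 250 bp, ribosomal protein genes were at 14.0% and translation genes at 4.598%. The spacing classes, the X and the single lists were compared after seeing the data. The effect of depth could not be judged, since depth is unknown, and the cause of the differences between settings was not tested.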
